A study of Mus musculus with 10 samples.

Results

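The heart's inward rectifier and background potassium channel genes, 10 in number, were compared between Mc4r knockout and wild type mouse hearts, out of 24160 gene rows measured. The 10 genes encode the Kir2 pore subunits Kcnj2, Kcnj12 and Kcnj14, the acetylcholine-gated pore subunits Kcnj3 and Kcnj5, the ATP-sensitive pore subunits Kcnj8 and Kcnj11 with their sulfonylurea receptors Abcc8 and Abcc9, and the background channel Kcnk3. The family was selected on the normalized counts of Kcnj14, which were higher in the knockout in these same libraries, and the other 9 genes were added as relatives and partners. The difference in Kcnj14 is therefore a description and carries no test.

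The knockout group (MC4R-/-) had 6 libraries and the wild type group (WT) had 4. All mice were of strain C57BL6/J, came from crosses of heterozygous parents, were kept at 24 °C and were sampled at 30 weeks of age. Each library held polyadenylated RNA from the posterior wall of the left ventricle. The labels name no sex, diet or batch. They also leave unsaid whether every library came from its own mouse, so p-values measure the spread between these libraries, part of which may be technical. The knocked-out gene encodes the melanocortin 4 receptor, a receptor of hypothalamic neurons that restrains feeding. Mc4r had at most 2 reads in any library and 0 in 7 of 10, in both genotypes, so it checked no label here.

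Inward rectifier channels pass potassium more readily into the cell than out of it, and they hold the resting potential of heart muscle near that of potassium. Channels of the Kir2 type carry the steady inward rectifier current of ventricular muscle, the Kir3 type opens when the vagal transmitter acetylcholine acts on muscarinic receptors, and the Kir6 type opens when ATP falls, with a sulfonylurea receptor beside each pore subunit. Kcnk3 encodes a 2-pore-domain channel, TASK-1, which is open at rest and closes when the outside becomes acidic.

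The pore subunits share 1 stretch of sequence, the selectivity filter, in which a short backbone loop strips water from potassium ions. The coding sequence of that stretch is printed below, for all pore genes but Kcnj12. It shows how alike the pores are and where the Kir6 pair departs from the other Kir genes printed. Each line holds 27 bases, 5′ to 3′ on the gene's own strand, from the GENCODE M21 transcripts of GRCm38, and the capitals mark the codon between the 2 glycines of the filter. Coordinates are 1-based on GRCm38.

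Kcnj14, chr7:45819627-45819653, minus strand: cagacgtccataggcTATggtgtgcgc
Kcnj2, chr11:111072201-111072227, plus strand: cagacaaccattggcTATggtttcagg
Kcnj3, chr2:55437621-55437647, plus strand: gaggccaccatcggcTATggctaccgc
Kcnj5, chr9:32322553-32322579, minus strand: gaaacaaccattgggTATggcttcaga
Kcnj8, chr6:142566442-142566468, minus strand: caagtgaccattgggTTTggagggaga
Kcnj11, chr7:46099490-46099516, minus strand: caggtgaccattggtTTCggcgggcgc
Kcnk3, pore 1, chr5, plus strand, interrupted by an intron: atcaccaccatcggcTATggtcatgcg
Kcnk3, pore 2, chr5:30622196-30622222, plus strand: ctcaccaccatcggcTTCggcgactat

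The capital codon reads tyrosine in Kcnj14, Kcnj2 and the Kir3 genes and in the first pore of Kcnk3. It reads phenylalanine in Kcnj8, in Kcnj11 and in the second pore of Kcnk3. Abcc8 and Abcc9, whose products are regulatory receptors without a potassium pore, held 0 such stretches. The genes of the ATP-sensitive channel form 2 neighbouring pairs. Kcnj11 (7:46093953-46100764) lies 3759 bases from Abcc8 (7:46104523-46180033), and Kcnj8 (6:142564837-142571614) lies 16248 bases from Abcc9 (6:142587862-142702315), all on the minus strand. Kcnj14 (7:45816460-45824782, minus strand) lies 269171 bases from Kcnj11 on the same chromosome.

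Values are read counts per gene scaled for library depth by the authors, called normalized counts below. Between 4145033 and 6425785 reads per library were recovered from them, and 1 read was worth 0.871 to 1.384 normalized counts. All 10 genes passed the filter for testing, a mean normalized count of at least 1. Genotypes were compared with limma on log2(normalized count + 1) over all 14611 rows that passed, and adjusted p-values are Benjamini-Hochberg values over all of them. Fold changes are knockout over wild type on that log2 scale. Of all tested genes, 67 were called at an adjusted p of 0.05, which is 0.459%, with 42 higher and 25 lower in the knockout. Of the 9 genes other than Kcnj14, 0 were called by limma, 0 by edgeR and 0 by DESeq2, and 3 had an unadjusted p under 0.05 by limma (Abcc8, Kcnj5 and Abcc9). Over all tested genes 1403, or 9.6%, had an unadjusted p under 0.05. In 7 of the 9 the fitted change was above 0 and in 2 it was below, with a median of 0.07, beside -0.01 over all genes tested. The groups did not overlap for Kcnj14 and, of the other 9, for Abcc8; over all tested genes this held for 333, or 2.28%. Since the same contrast chose the family, nothing is read from these counts.

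Among the Kir2 genes, Kcnj14 was the lowest in level and the one with a wide gap between genotypes. Kcnj14 encodes Kir2.4, a Kir2 subunit first described in neurons. Its normalized count was 7.697, 9.027, 9.691 and 14.97 in the 4 wild type libraries. In the 6 knockout libraries it ran from 18.23 through a median of 33.19 to 53.14. The lowest knockout library lay above the highest wild type library. The knockout mean of 33.14 ± 11.9 (SD, n = 6) was 3.2 times the wild type mean of 10.35 ± 3.19 (SD, n = 4), and the fitted log2 difference was 1.55 (SE 0.27). These values rest on few reads, 18 to 61 in each knockout library and 7 to 17 in each wild type library.

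**Figure D1:**
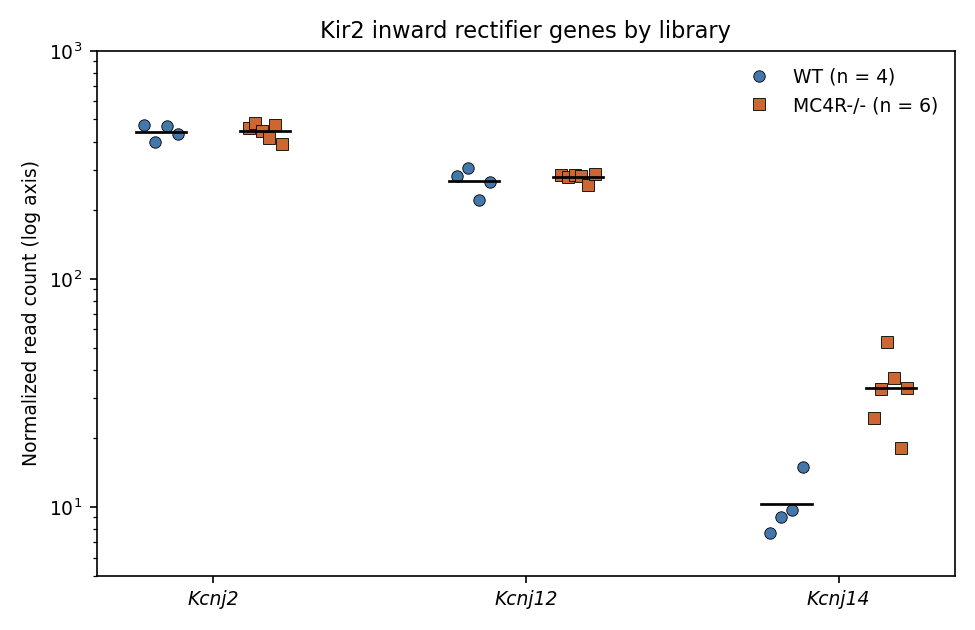
Normalized read count (vertical log axis) of the Kir2 genes Kcnj14, Kcnj2 and Kcnj12 in each library, by genotype, with points for libraries and a line for the group mean. The 6 knockout points of Kcnj14 (18.23 to 53.14) lie above the 4 wild type points (7.697 to 14.97), while for Kcnj2 and Kcnj12 the groups overlap.

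Kcnj14 overlaps no other gene in GENCODE M21. Grwd1, upstream on the same strand, ends 441 bases from it, and Cyth2, downstream on the same strand, lies 1879 bases away. The level of Grwd1, a gene of ribosome assembly, averaged 69.22 ± 18.1 (SD) in wild type and 66.71 ± 12.2 in knockout libraries, a log2 change of -0.03 (limma, adjusted p = 0.974). Cyth2, which encodes an exchange factor for ARF proteins, stood at 174.6 ± 21.5 and 177.1 ± 20.1, a log2 change of 0.02 (limma, adjusted p = 0.975). Both neighbours overlapped between genotypes.

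Kcnj2 encodes Kir2.1, the subunit best known for the resting potassium current of the ventricle. Its normalized count was 471.4, 396.3, 469.3 and 433.2 in the wild type libraries and 388.9 to 482.4 in the knockout, with a median of 453.4. The groups covered almost the same range. The log2 change was 0.00 with a 95% interval of -0.16 to 0.17 (limma, adjusted p = 0.997). Kcnj12 encodes Kir2.2, a second Kir2 subunit of ventricular muscle. It measured 281.9, 305.1, 221.5 and 265 in the wild type and ran from 258.3 through a median of 283.7 to 288.9 in the knockout. The highest and the lowest value were both wild type libraries. Its log2 change was 0.07 (95% interval -0.11 to 0.25; limma, adjusted p = 0.862).

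Kir2 subunits assemble as tetramers, of one kind or mixed. As a description, the summed normalized count of Kcnj2, Kcnj12 and Kcnj14, not divided by length, was 711.1 to 794.3 in the knockout and 700.5 to 761 in the wild type libraries, and these ranges overlapped. With each gene's count divided by its exon length, the Kcnj14 share of the 3 genes averaged 2.123% ± 0.685 (SD) in the 4 wild type and 6.277% ± 2.09 in the 6 knockout libraries. It ran from 1.495 to 3.076% and from 3.632 to 9.63%. Per kilobase Kcnj14 was the smallest part of the Kir2 transcripts in every library of both genotypes.

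Kcnj3 and Kcnj5 encode Kir3.1 and Kir3.4, which together form the acetylcholine-gated channel, a current strongest in the atria and the sinus node. Kcnj5 measured 636.9, 535.3, 563.5 and 623.3 in the wild type libraries. In the knockout it ran from 584.6 through a median of 676.4 to 756.7, so 3 knockout libraries lay above the wild type range and 3 within it. Its log2 change was 0.19 (SE 0.08, 95% interval 0.02 to 0.36) and did not pass adjustment over all genes (limma, adjusted p = 0.445). Kcnj3 measured 532, 456.8, 553.8 and 450.8 in the wild type and 448.7 to 666.5 in the knockout, with a median of 533.6. The groups overlapped over most of their range. The log2 change of Kcnj3 was 0.11 (95% interval -0.08 to 0.30; limma, adjusted p = 0.758).

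One knockout library, replicate 5, held the highest value of both Kcnj3 and Kcnj5, and it also stood apart in atrial markers. The summed level of the 6 atrial markers was 3418 in that library, 588.9 to 1018 in the other 5 knockout libraries and 515.4 to 1364 in the wild type. In wild type replicate 4, at 1364, Nppa alone, the gene of atrial natriuretic peptide, made up 1332. Nppa was the larger part of the sum in every library but knockout replicate 5. It made up 566.5 of 600.8 in knockout replicate 1 and 692.2 of 719.9 in wild type replicate 3. In knockout replicate 5 it was 1360. Outside that library the sum thus mostly followed Nppa. The defining markers of the list were Myl7, an atrial myosin light chain, and Sln, the sarcoplasmic reticulum regulator sarcolipin. Myl7 was 720.2 in replicate 5, 134.3 in knockout replicate 6, and at most 63.01 in the other 8 libraries, with 1 at 0. In knockout replicate 6 Kcnj5 was 747.4 and Kcnj3 was 496.9, below its knockout median of 533.6. Knockout replicate 1 had Kcnj5 at 730.9 with Myl7 at 0.9785 and Sln at 0. Sln was 170.2 in replicate 5, 22.22 in replicate 6 and at 0 in 4 of the 10. None of the 5 atrial markers tested was called by limma, and 0 had an unadjusted p under 0.05. Without knockout replicate 5 the log2 change of Kcnj5 was 0.16 (limma, adjusted p = 0.555) and that of Kcnj3 was 0.05 (limma, adjusted p = 0.898). The part of the atrial markers in the Kir3 values was not tested. The summed conduction markers were also highest in knockout replicate 5, at 351.5 beside 156.6 to 233.4 in the other knockout libraries and 152.3 to 222.2 in the wild type. Of the 5 conduction markers tested 0 were called by limma and 1, the defining marker Hcn4, a pacemaker channel gene, had an unadjusted p under 0.05. Hcn4 measured 50.99, 22.57, 20.77 and 26.41 in the wild type and ran from 40.07 through a median of 47.22 to 70.91 in the knockout. Its log2 change was 0.76 (SE 0.22; limma, adjusted p = 0.143), and 1 wild type library lay within the knockout range. The other defining marker, Cntn2, was above 0 in every library. The part of these markers in the Kir3 values was not tested either.

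**Figure D2:**
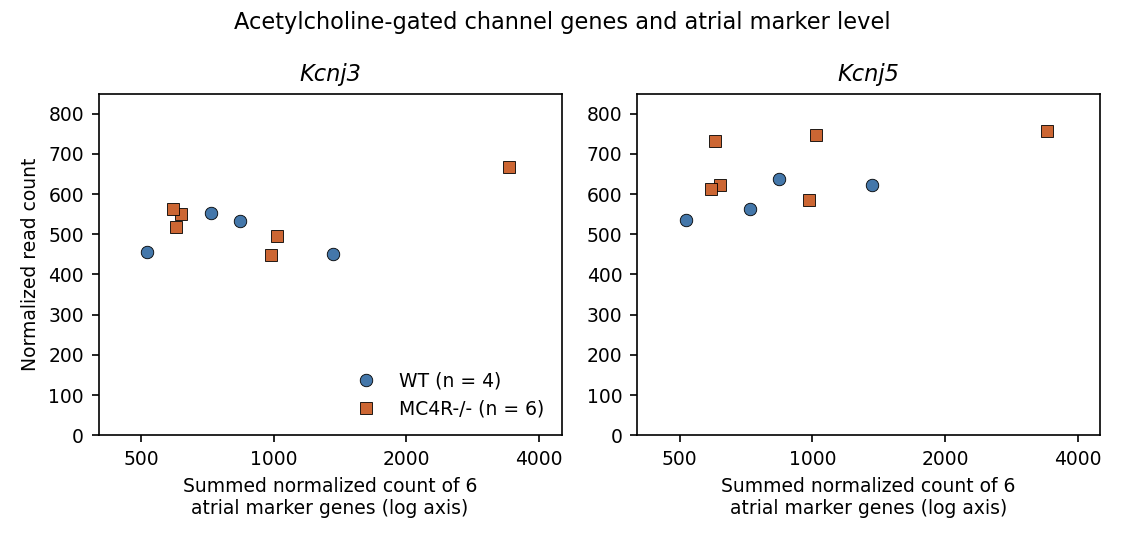
Normalized read count of Kcnj3 and Kcnj5 (vertical axes, from 0) against the summed normalized count of 6 atrial marker genes (horizontal log axis) in each library, with 1 point per library coloured by genotype. The knockout library at 3418 on the horizontal axis is also the highest for Kcnj3 (666.5) and for Kcnj5 (756.7). The other 9 libraries lie between 515.4 and 1364 with the genotypes mixed, and in these Nppa is the larger part of the sum.

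The channel that opens when ATP falls is built from a Kir6 pore and a sulfonylurea receptor. Its genes showed no called difference. The fitted changes were above 0 for the pores, with both intervals including 0, and below 0 for the receptors. The sign was not stable for Kcnj8, whose change was -0.034 without wild type replicate 2. Kcnj11 encodes Kir6.2, the pore of the channel in heart muscle. It measured 1174, 1231, 1004 and 1163 in the wild type libraries and ran from 1155 through a median of 1245 to 1302 in the knockout. Of the knockout libraries 3 lay above the wild type maximum and the other 3 within its range. The log2 change was 0.12 (95% interval -0.03 to 0.26; limma, adjusted p = 0.642), and it was 0.05 without wild type replicate 3. Kcnj8 encodes Kir6.1, the pore of the channel in vascular smooth muscle and pericytes. It measured 268.4, 218.4, 321.2 and 338.1 in the wild type and ran from 259.3 through a median of 305.3 to 345.4 in the knockout. The wild type libraries spanned nearly the whole knockout range. The log2 change of Kcnj8 was 0.09 (95% interval -0.13 to 0.31; limma, adjusted p = 0.852).

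Abcc8 encodes SUR1, the sulfonylurea receptor best known from pancreatic beta cells and also made in mouse atria. Its normalized count was 241.5, 248.2, 231.2 and 225.4 in the wild type libraries. In the knockout it ran from 176 through a median of 206.8 to 214.3. All 6 knockout libraries lay below all 4 wild type libraries. The mean was 199.2 ± 16.6 (SD, n = 6) against 236.6 ± 10.2 (SD, n = 4), and the log2 change was -0.25 (SE 0.09, 95% interval -0.43 to -0.07) before adjustment. It did not pass adjustment over all genes (limma, adjusted p = 0.299). The beta cell genes Ins1, Ins2 and Iapp had 0 reads in all 10 libraries. The span of an annotated antisense transcript, introns included, covers up to 99 bases of a single Abcc8 exon. No source used here says whether the counting used strand, so any antisense reads within Abcc8 exons cannot be told apart. The span of a transcript on the opposite strand likewise covers up to 1080 bases of a single Kcnj3 exon.

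Abcc9 encodes SUR2, the receptor of the ventricular and vascular channels, and was the most abundant of the receptors. It measured 3273, 2869, 3703 and 3406 in the wild type and ran from 2619 through a median of 3033 to 3193 in the knockout. Of the 4 wild type libraries 3 lay above every knockout library, and replicate 2 lay within the knockout range. The log2 change was -0.16 (SE 0.07, 95% interval -0.31 to -0.01) and did not pass adjustment either (limma, adjusted p = 0.456). With wild type replicate 2 left out the change was -0.23 (limma, adjusted p = 0.147), and with wild type replicate 3 left out it was -0.11 (limma, adjusted p = 0.678). The span of the antisense transcript 5330439B14Rik covers up to 158 bases of a single Abcc9 exon. The row of 5330439B14Rik held 2.026 to 8.08 normalized counts over the 10 libraries.

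Vascular cell markers were measured beside Kcnj8 and Abcc9. The summed level of 6 pericyte markers was 6271 to 6886 in the knockout and 5878 to 7630 in the wild type. Among the wild type libraries that sum, the Kcnj8 level and the Abcc9 level were all lowest in replicate 2, and the 2 highest values of each were in replicates 3 and 4. The knockout libraries did not share this order. There the sum was lowest in replicate 5 (6271), Kcnj8 in replicate 2 (259.3) and Abcc9 in replicate 6 (2619). In knockout replicate 6 Kcnj8 was at its highest (345.4). Smooth muscle markers summed to 1753 to 2316 in the knockout and 2077 to 2477 in the wild type. None of the 6 pericyte or 6 smooth muscle markers was called by limma, though Acta2, smooth muscle actin, had an unadjusted p under 0.05, at 658.1 ± 73 (SD, n = 4) in the wild type against 487.4 ± 113 (SD, n = 6) in the knockout. Its log2 change was -0.45 (limma, adjusted p = 0.283). The defining markers of both lists (Rgs5, Pdgfrb, Acta2 and Myh11) were above 0 in every library. Their part in the values of Kcnj8 and Abcc9 was not tested. In RNA from whole tissue, fewer cells of a type and less RNA per cell cannot be told apart.

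**Figure D3:**
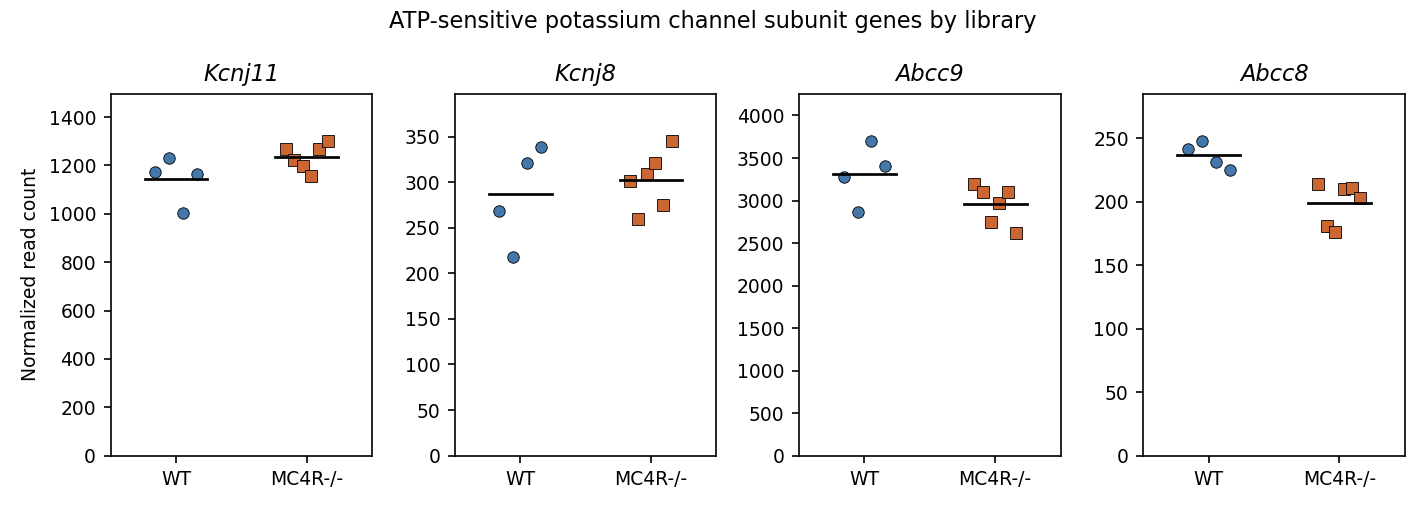
Normalized read count (vertical axes, from 0) of the ATP-sensitive channel genes Kcnj11, Kcnj8, Abcc9 and Abcc8 in each library, by genotype, with points for libraries and a line for the group mean. Only for Abcc8, among these 4 genes, do the knockout points (176 to 214.3) lie apart from the wild type points (225.4 to 248.2).

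As a description of the complex, the summed pore level over the summed receptor level, each per kilobase of exon, averaged 0.9519 ± 0.111 (SD) in the 4 wild type and 1.151 ± 0.12 in the 6 knockout libraries. The ranges were 0.8022 to 1.069 and 1.059 to 1.369, which overlapped through 1 library of each genotype. This ratio and the shares below were not among the planned descriptions. The planned log2 differences overlapped between genotypes. Kcnj8 less Abcc9 was -3.572 to -2.919 in the knockout and -3.709 to -3.329 in the wild type. Kcnj8 less Kcnj11 was -2.231 to -1.843 and -2.489 to -1.641, and Abcc9 less Abcc8 was 3.683 to 4.09 and 3.525 to 3.996, in the same order. Kcnj11 made up 76.1% ± 2.01 of the Kir6 level per kilobase in the knockout and 75.57% ± 4.73 in the wild type. Abcc8 made up 9.457% ± 0.814 of the receptor level per kilobase in the knockout and 10.03% ± 1.32 in the wild type. The make-up of pore and of receptor transcripts thus differed between genotypes by less than the spread between libraries.

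Kcnk3 measured 1815, 1939, 1570 and 1872 in the wild type libraries and ran from 1747 through a median of 1793 to 2059 in the knockout. The groups overlapped, with the lowest library wild type and the highest knockout. The log2 change was 0.03 (95% interval -0.11 to 0.18; limma, adjusted p = 0.927). The span of the model gene Gm9899, on the opposite strand, covers up to 430 bases of a single Kcnk3 exon. The row of Gm9899 showed no called difference (limma, adjusted p = 0.986).

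**Figure D4:**
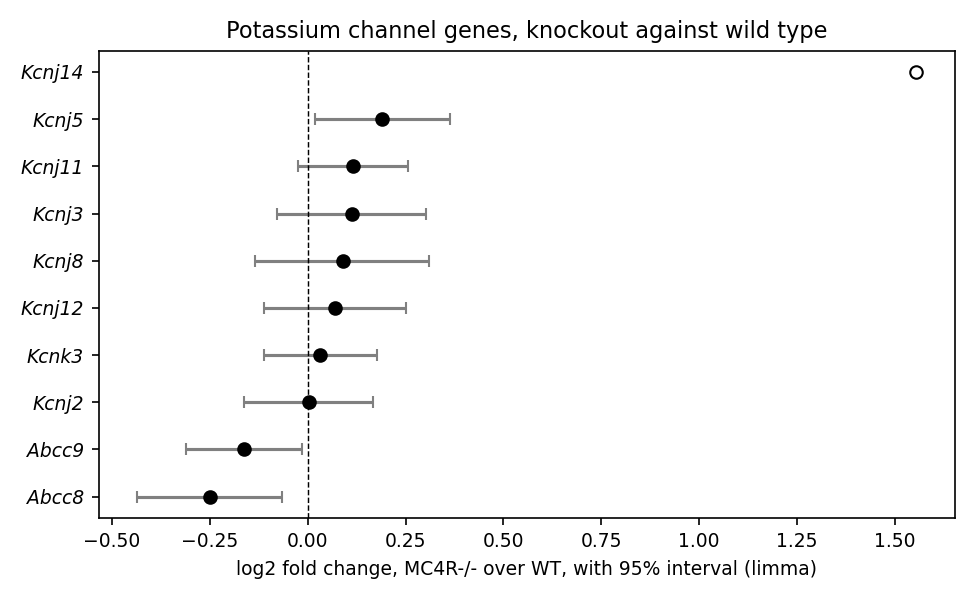
Log2 change of each gene, knockout over wild type, on the log2(normalized count + 1) scale, with bars for the 95% interval from limma. The open circle is Kcnj14 (1.55), drawn without an interval because its difference chose the family. The intervals of Kcnj5, Abcc9 and Abcc8 leave out 0 before adjustment and the other 6 include it.

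Levels of different genes were compared only after division by exon length. In the wild type ventricle Kcnk3 was the highest at 472 normalized counts per kilobase, followed by Abcc9 at 440, and these neighbours overlapped between libraries (412 to 509 and 381 to 491). Kcnj11 came next at 349 (306 to 375), below every Abcc9 value. After a gap followed Kcnj5 at 126, Kcnj8 at 112, Kcnj12 at 97.6, Kcnj3 at 95.6 and Kcnj2 at 81.3, and each of these overlapped its neighbour in the order. Abcc8 stood apart at 48.5 (46.2 to 50.9). Kcnj14 was last at 3.86 ± 1.19 (SD, n = 4). The knockout kept Kcnk3, Abcc9 and Kcnj11 on top, at 482, 392 and 377, and Kcnj11 (352 to 397) and Abcc9 (347 to 424) overlapped there. Abcc8, at 40.8, and Kcnj14, at 12.4 ± 4.44 (SD, n = 6), were again the lowest 2. The exons counted by the authors are not stated, so these levels assume the exons of the GENCODE M21 transcripts that match each row.

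**Figure D5:**
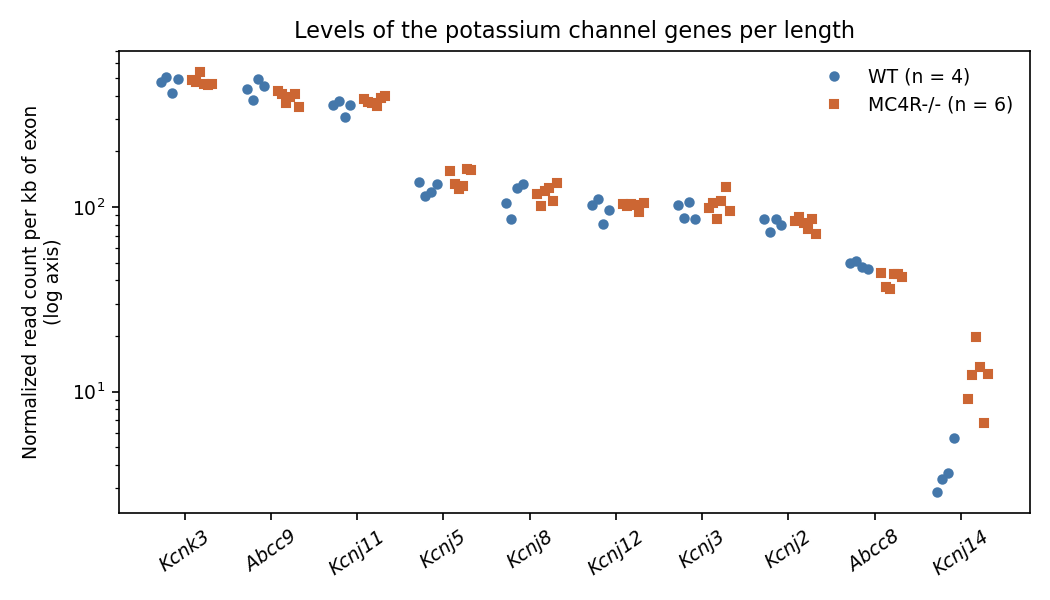
Normalized read count per kilobase of exon (vertical log axis) for the 10 genes, ordered by wild type mean, with 1 point per library and the genotypes side by side. Kcnk3, Abcc9 and Kcnj11 lie at the top in both genotypes and Kcnj14 lies lowest, at 2.87 to 5.58 in wild type and 6.8 to 19.8 in knockout libraries.

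The genes also differed in how far libraries of one genotype spread. The coefficient of variation in the knockout was 35.9% for Kcnj14 and between 4% (Kcnj12) and 13.7% (Kcnj3) for the other 9. In the wild type it was 30.8% for Kcnj14 and between 4.31% (Abcc8) and 18.9% (Kcnj8) for the others. Wild type replicate 3, the library with the fewest reads, held the lowest value of Kcnj12 (221.5), Kcnj11 (1004) and Kcnk3 (1570) and the highest value of Abcc9 (3703).

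The remaining inward rectifier and 2-pore-domain genes mostly lay under the filter. Of 21 such genes, 8 had a mean of at least 1 and 0 were called by limma and by edgeR. By limma 1 had an unadjusted p under 0.05, beside 9.6% of all tested genes, and DESeq2 called the same 1. That gene was Kcnk1, which encodes TWIK-1, another background channel. Its normalized count was 10.58, 12.64, 0 and 6.163 in the wild type and ran from 18.23 through a median of 26.99 to 40.95 in the knockout, and the groups did not overlap. The log2 change was 2.26 (SE 0.68, 95% interval 0.73 to 3.79; limma, adjusted p = 0.283). It passed without wild type replicate 3, the library at 0, with a log2 change of 1.42 (limma, adjusted p = 0.0332), with log2(normalized count + 5) (1.52; limma, adjusted p = 0.0355), and by DESeq2 (1.86, adjusted p = 0.00143), and edgeR gave an adjusted p of 0.0603. Over all alternatives its adjusted p ran from 0.00143 to 0.56. Kcnk2, the stretch-activated channel TREK-1, measured 22.24 ± 4.45 (SD, knockout) and 18.05 ± 4.69 (wild type), a log2 change of 0.30 (limma, adjusted p = 0.743). Of the 13 genes under the filter, 5 (Kcnj1, Kcnk9, Kcnk12, Kcnk15 and Kcnk16) had 0 reads in all 10 libraries. For a library taken alone, 0 reads allow an expected count of up to 3, and for the 10 together the limit per library is lower.

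Genes whose products act on these channels were listed too: the muscarinic and adenosine receptors with their G proteins and RGS proteins, scaffold and trafficking proteins, and the kinases that make the lipid PIP2, which Kir channels need to open. Of 34 such genes 33 had a row of their own, and all 33 were tested. None was called by limma, edgeR or DESeq2, and 7 had an unadjusted p under 0.05 by limma, beside 9.6% of all tested genes. The fitted change was above 0 in 17 and below 0 in 16, with a median of 0.02. Rgs7bp, which anchors RGS proteins at the membrane and tunes how fast Kir3 channels close, averaged 62.01 ± 15 (SD) in wild type and 40.54 ± 10.4 in knockout libraries. Its log2 change was -0.60 (SE 0.20; limma, adjusted p = 0.243). Gnao1, a G protein alpha subunit, measured 170.1 ± 20.1 in the knockout and 138.5 ± 19.1 in the wild type, a log2 change of 0.30 (SE 0.11; limma, adjusted p = 0.326). Chrm2, the muscarinic receptor that opens Kir3 channels, was added after its values were seen. It measured 204.7 ± 24.9 (SD, knockout) and 252.2 ± 41.3 (wild type), a log2 change of -0.29 (SE 0.11; limma, adjusted p = 0.344).

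The calls of Rgs7bp and Chrm2 depended on 1 library. Without wild type replicate 2 the change of Rgs7bp was -0.79 (limma, adjusted p = 0.0443) and that of Chrm2 was -0.42 (limma, adjusted p = 0.0416), both past the threshold. Over all alternatives the adjusted p of Rgs7bp ran from 0.0156 to 0.494 and that of Chrm2 from 0.0291 to 0.581. That library also stood apart in lymphocyte markers, whose summed level was 358.4 there and 7.119 to 25.98 in the other 9. The defining markers Cd3e (106.5) and Cd3d (96.59) and another T-cell gene, Cd3g (143.5), made up most of that sum. The B-cell genes of the list were low there, with Cd79a at 7.221, Cd79b at 3.611 and Ms4a1 at 0.9027. The part of the lymphocyte markers in the values of these genes was not tested. Cardiomyocyte markers summed to 344500 to 396700 in the knockout and 357800 to 407100 in the wild type, and the defining markers Myh6 and Tnnt2 were above 0 in every library. Endothelial markers summed to 5417 to 6631 and 5655 to 6315, fibroblast markers to 4286 to 5001 and 3798 to 4480, and skeletal muscle markers to 10880 to 18900 and 9702 to 13720, in knockout and wild type in turn. The endothelial markers Pecam1 and Cdh5 and the fibroblast marker Tcf21 were above 0 in every library, and Pdgfra shares a row with another gene. The skeletal muscle sum was nearly all Ckm (8018 to 10980 over the 10 libraries) and Acta1 (1175 to 9441), so it is no measure of skeletal muscle here. Of the defining skeletal muscle markers, Myh2 had 0 reads in all 10 libraries and Myh1 in 9. Myh4 also had 0 reads in all 10, and Tnnt3 was at most 5.416. Over the 10 marker lists, 1 of 47 tested genes was called, the fibroblast gene Lum, beside 0.459% of all tested genes.

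Lastly, the genes whose libraries followed Kcnj14 most closely were taken from 12867 tested genes with a mean of at least 5, by Pearson correlation of log2 values over the 10 libraries. Of the 5 closest, 4 are given: Hspb8 (r = 0.96), a small heat shock protein, Mcfd2 (0.95), Mlec (0.95) and Lgals1 (0.94), the secreted lectin galectin-1. With each genotype's mean taken away, the 5 closest were Crkl (r = 0.97), Sdcbp2 (0.91), Hspb8 (0.91), Lyplal1 (0.91) and Coprs (0.90), so Hspb8 stood in both lists. The 10 points share depth and scaling, the genes are the extremes of a long ranking, and the correlations are a description only. The first ranking also holds the genotype difference that chose Kcnj14. Both rankings use the same libraries, so a gene in both carries no added weight.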

How the data were processed

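Libraries were made from left ventricular polyadenylated RNA of 6 Mc4r knockout and 4 wild type samples, from 200 ng of RNA each with a stranded KAPA kit, per the labels' protocols. Per the submitters' processing notes the tools included Cuffnorm 2.2.1.1, Cufflinks 2.2.1, TopHat2 2.1.0 and Bowtie2, on build mm10. Neither the annotation nor the strand setting is stated in the sources used here. In the signal table that the authors deposited, each value is a count of reads over 1 size factor per library: 99.99 to 100% of values were whole multiples of 1 read within 0.1, which gave back 4145033 to 6425785 reads per library. No 2 libraries of one genotype agreed within sampling noise (lowest chi-square per gene 2.63).

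Rows were named by RefSeq accession from RefSeq (GRCm38.p6) and GENCODE M21 (24107 of 24160 matched, 339 of them joining several genes). Genotypes were compared with limma 3.58.1 in R 4.3.3 (trend and robust) on log2(value + 1), over the 14611 rows with a mean of at least 1, with two-sided p-values, Benjamini-Hochberg adjustment and a threshold of 0.05. On this scale the change of a low gene depends on the added 1. edgeR 4.0.16 (quasi-likelihood) and DESeq2 1.42.0 were run on the recovered reads as alternatives. The fit was checked on simulated data, where it found 42% of 1.3-fold and 82% of 1.5-fold changes, and 5 of 167 calls were false. Changes of 1.3-fold were thus often missed. Only genes with a mean of at least 50 were changed there, so it does not cover genes as low as Kcnj14 or Kcnk1.

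The genes and lists were chosen with earlier results of these data known. The text names all 10 channel genes. Of the other potassium channel and partner lists it names each called gene or else the 2 with the smallest p. It also names genes from the 5 most correlated with Kcnj14 in each of 2 rankings, and gives 10 marker lists (cardiomyocyte, smooth muscle, pericyte, endothelium, fibroblast, atrial, conduction, lymphocyte, skeletal muscle and beta cell) by summed level and defining markers. Chrm2 was added after its values were seen. A gene of the rankings, a marker list and a coding stretch are not reported here.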

Additional observations from a re-analysis of the deposited data

Results flagged for a closer look

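In 2 of the 20 groups checked (10 genes in 2 genotypes), 1 library lay far from the rest by Dixon's ratio, the gap to the nearest other library over the whole range of the group. Chance alone gives about 1 in 20 such groups. In Kcnj12 of the knockout the ratio was 0.674, above the critical value for 6 samples, because replicate 5 lay at 258.3 normalized counts and the other 5 lay between 278.9 and 288.9. In Kcnk3 of the knockout the ratio was 0.629, because replicate 3 lay at 2059 and the next library at 1863. Kcnj14 had no such library in either genotype.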

How the results depend on the processing

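Under all 23 alternatives 0 of the 9 genes other than Kcnj14 were called, and the log2 difference of Kcnj14 lay between 1.28 and 1.73. Over all genes, 67 were called in the main setting, beside 0 by limma without trend and robust (1290 at an unadjusted p under 0.05), 118 by DESeq2, 118 with library weights and 167 with knockout replicate 5 and wild type replicate 2 both left out, a choice made after seeing the data. With 1 library left out the count ran from 26 (without wild type replicate 4) to 118 (without wild type replicate 2). The other potassium channel genes called rose from 0 to 1 (Kcnk1) with log2(value + 5) and by DESeq2, and ran from 0 to 1 with 1 library left out. Partner genes called were 2 (Rgs7bp and Chrm2) with both libraries left out, and ran from 0 to 2 with 1 left out, the 2 without wild type replicate 2. The sign of 4 uncalled changes turned. Kcnj2 was -0.002 with library weights and -0.067 with both libraries left out, and ran from -0.049 to 0.04 with 1 left out. Kcnj8 was -0.008 with both left out and ran from -0.034 to 0.175. Kcnj12 ran from -0.019 to 0.135 and Kcnk3 from -0.032 to 0.07. The causes were not tested. Replicate numbers 1 to 4 occur in both genotypes, but libraries of one number did not deviate together (correlations -0.06, -0.032, -0.06 and -0.003, none the highest for its number); a replicate block gave 52 calls, and with it 0 of the 9 genes were called. Depth limits Kcnj14 and Kcnk1, whose values rest on 61 reads or fewer in each library.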
